A study of Oryza sativa with 12 samples.

Results

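In rice inflorescence meristems, 5 cell cycle genes were followed over 12 microarrays: the D-type cyclins CYCD2-2, CYCD5-3 and CYCD6-1, the B-type cyclin CYCB1-1, and OsORC4, a subunit of the origin recognition complex. They were 5 of the 15140 genes with a probe assigned to them alone, and each was found by its symbol or a synonym in the probe-to-gene annotation. They had been selected on differences from wild type in these same arrays, so their differences from wild type are given below as descriptions, with no test. Each had 1 probe, and no probe shared its values with another. The exact symbol CYCB1-1 belonged to LOC4327547, while LOC4326914 carried the same name only as a differently spelled synonym. LOC4326914 is called CYCB1-3 here and was counted among the other cyclins.

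The RNA came from dissected inflorescence meristems, sampled very early in panicle formation with a few bracts still attached, of plants kept outdoors in soil. There were 3 arrays each of the fon2-3 mutant, the asp1-10 mutant, the double mutant fon2-3 asp1-fe and wild type (WT). FON2 is the gene of a CLAVATA3-like signalling peptide that keeps the meristem small, and the product of ASP1 is a corepressor of the TOPLESS family. The double mutant carries another asp1 allele, asp1-fe, than the single mutant, so allele and genotype cannot be told apart where these lines are compared. The labels did not say whether the arrays of a genotype came from separate plants or pools, so a p-value here covers just the spread among these arrays, which may be technical. Values are the deposited signals on the log2 scale, where a difference of 1 is a doubling of signal. Because the tissue was profiled in bulk, fewer cells of a type and less RNA per cell cannot be told apart.

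D-type cyclins act at the entry to the cell cycle. With their kinase partner they phosphorylate the retinoblastoma-related protein RBR, which otherwise holds back the E2F factors that turn on genes of DNA synthesis. The origin recognition complex sits on DNA before that step and is the platform on which CDC6, CDT1 and the MCM helicase are loaded. B-type cyclins act later, with kinases that drive entry into mitosis, and their transcripts and proteins are removed once a cell has divided. In meristems such genes are widely used as marks of dividing cells.

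Of the 5 genes, the 3 D-type cyclins and OsORC4 had higher signals in every mutant genotype than in WT, with no overlap between the 3 mutant arrays and the 3 WT arrays. CYCB1-1 lay the other way. It was below all WT arrays in fon2-3 and in asp1-10, and its arrays overlapped with WT in the double mutant.

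**Figure D1:**
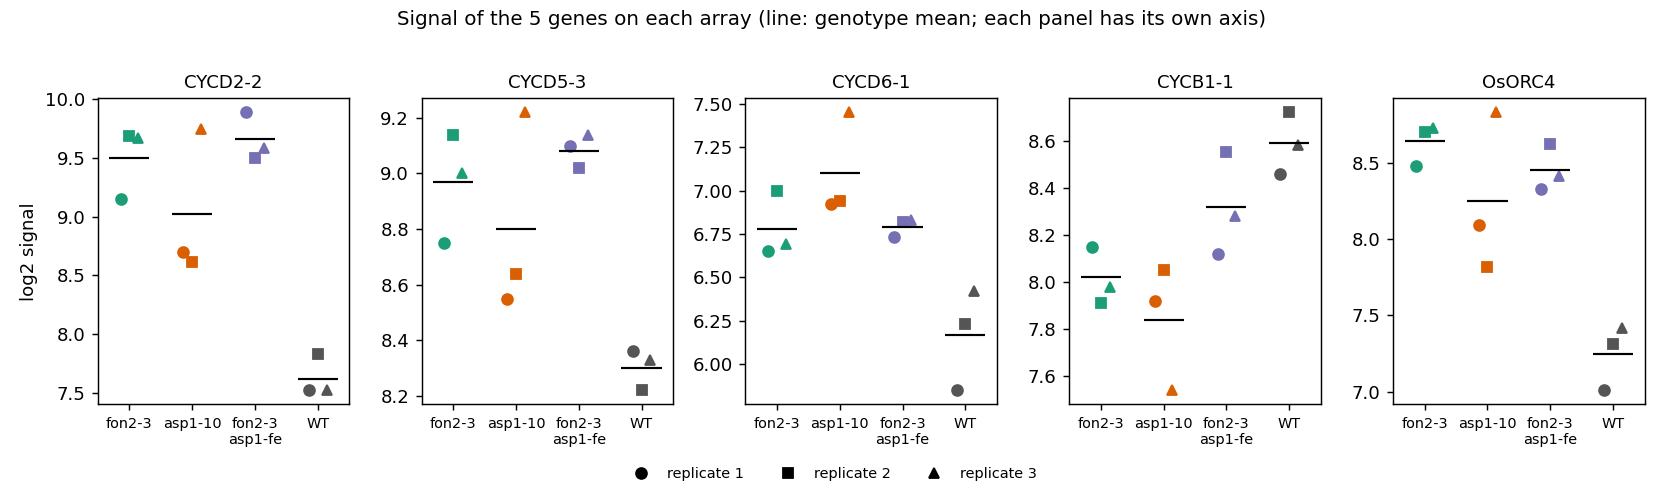
Log2 signal (y axis, a separate scale per gene) of CYCD2-2, CYCD5-3, CYCD6-1, CYCB1-1 and OsORC4 on each of the 12 arrays, by genotype, with marker shape for the replicate number and a line at the genotype mean. For CYCD2-2 all mutant arrays sit at 8.61 or above and all WT arrays at 7.83 or below, and asp1-10 replicate 3 lies apart from replicates 1 and 2 of its genotype in all 5 panels.

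Among the D-type cyclins CYCD2-2 had the widest separation from WT. Its signal was 9.15, 9.69 and 9.67 in the fon2-3 arrays, 8.70, 8.61 and 9.75 in the asp1-10 arrays, 9.89, 9.50 and 9.59 in the double mutant, and 7.52, 7.83 and 7.52 in WT. Every mutant array lay above every WT array, with a gap to the highest WT array of 1.33 in fon2-3, 0.78 in asp1-10 and 1.67 in the double mutant. The genotype means were 9.50 ± 0.304 in fon2-3, 9.02 ± 0.633 in asp1-10, 9.66 ± 0.202 in the double mutant and 7.62 ± 0.176 in WT (SD, n = 3 each). The difference from WT was 1.88 in fon2-3 (3.68-fold), 1.39 in asp1-10 (2.63-fold) and 2.04 in the double mutant (4.10-fold), each with an SE of 0.273. By size it was rank 3 among the differences of 15140 genes in fon2-3, counted from the largest positive one, rank 41 in asp1-10 and rank 16 in the double mutant. The order of means was double mutant, fon2-3, asp1-10 and WT, and only the step between asp1-10 and WT was free of overlap between neighbours.

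CYCD5-3 had the same order of genotypes over a smaller span. Its signal was 8.75, 9.14 and 9.0 in fon2-3, 8.55, 8.64 and 9.22 in asp1-10, 9.10, 9.02 and 9.14 in the double mutant, and 8.36, 8.22 and 8.33 in WT. All 9 mutant arrays exceeded the highest WT array, and the 3 mutant genotypes overlapped with each other. The means were 8.97 ± 0.197 in fon2-3, 8.80 ± 0.362 in asp1-10, 9.08 ± 0.0577 in the double mutant and 8.30 ± 0.0769 in WT (SD, n = 3 each). It differed from WT by 0.66 in fon2-3 (1.58-fold), by 0.50 in asp1-10 (1.41-fold) and by 0.78 in the double mutant (1.72-fold), with an SE of 0.169. By size it was rank 527 in fon2-3, rank 824 in asp1-10 and rank 334 in the double mutant, far behind CYCD2-2 in the same comparisons.

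CYCD6-1 was the exception to that order, with its highest level in asp1-10. In Arabidopsis the CYCD6;1 gene is known for its part in formative divisions of root ground tissue. The rice signal was 6.65, 7.0 and 6.69 in fon2-3, 6.92, 6.94 and 7.45 in asp1-10, 6.73, 6.82 and 6.83 in the double mutant, and 5.85, 6.23 and 6.42 in WT. The asp1-10 arrays lay above all double mutant arrays by a gap of 0.09, the double mutant and fon2-3 overlapped, and all mutant arrays were above WT. The means were 6.78 ± 0.194 in fon2-3, 7.10 ± 0.299 in asp1-10, 6.79 ± 0.0543 in the double mutant and 6.17 ± 0.293 in WT (SD, n = 3 each). The difference from WT was 0.61 in fon2-3 (1.53-fold, rank 673), 0.94 in asp1-10 (1.91-fold, rank 161) and 0.63 in the double mutant (1.54-fold, rank 600), with an SE of 0.181.

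OsORC4 had differences from WT that were smaller than those of CYCD2-2 and larger than those of CYCD5-3 and CYCD6-1 in every mutant. In asp1-10 its place above CYCD6-1, 1.0 against 0.94, rested on replicate 3. Without that array OsORC4 had 0.71 and CYCD6-1 had 0.76. ORC4 is 1 of the subunits of the complex that marks replication origins. Its signal was 8.48, 8.70 and 8.73 in fon2-3, 8.09, 7.82 and 8.83 in asp1-10, 8.33, 8.62 and 8.41 in the double mutant, and 7.01, 7.31 and 7.42 in WT. No mutant array came within the WT range, and asp1-10 spanned the arrays of both other mutants. The means were 8.64 ± 0.134 in fon2-3, 8.25 ± 0.526 in asp1-10, 8.45 ± 0.146 in the double mutant and 7.25 ± 0.215 in WT (SD, n = 3 each). It differed from WT by 1.39 in fon2-3 (2.62-fold, rank 29), by 1.0 in asp1-10 (2.0-fold, rank 136) and by 1.21 in the double mutant (2.31-fold, rank 80), with an SE of 0.224.

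CYCB1-1, the mitotic cyclin, had its highest mean in WT. Its signal was 8.15, 7.91 and 7.98 in fon2-3, 7.92, 8.05 and 7.54 in asp1-10, 8.12, 8.55 and 8.28 in the double mutant, and 8.46, 8.72 and 8.58 in WT. Double mutant replicate 2 was above the lowest WT array, so these groups overlapped, while both single mutants lay wholly below WT. The means were 8.02 ± 0.122 in fon2-3, 7.84 ± 0.269 in asp1-10, 8.32 ± 0.216 in the double mutant and 8.59 ± 0.131 in WT (SD, n = 3 each). The difference from WT was -0.57 in fon2-3 (1.49-fold lower), -0.75 in asp1-10 (1.68-fold lower) and -0.27 in the double mutant (1.21-fold lower), with an SE of 0.158. Counted from the most negative difference of the 15140 genes, it was rank 611 in fon2-3 and rank 261 in asp1-10. In the order WT, double mutant, fon2-3 and asp1-10, each neighbouring pair overlapped.

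**Figure D2:**
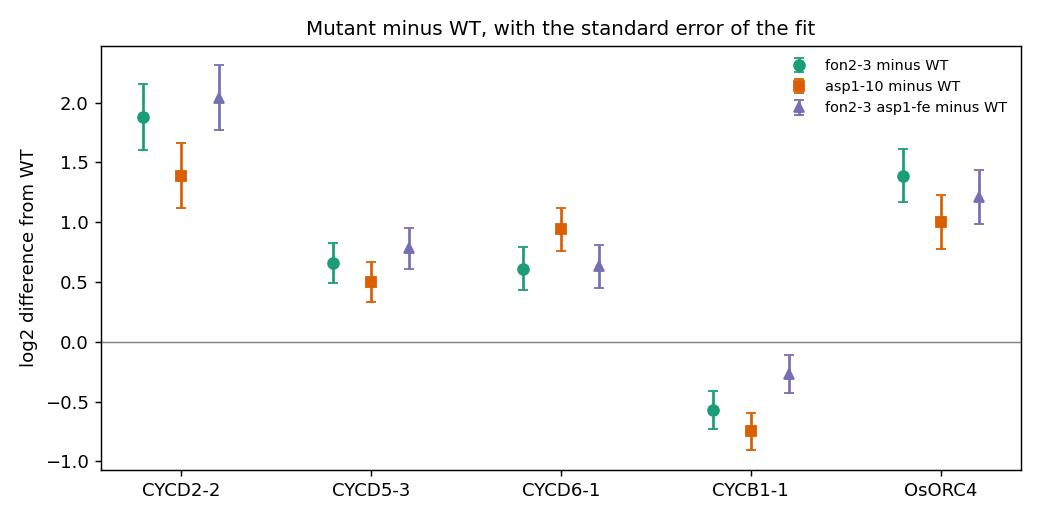
Difference in log2 signal from WT (y axis) of the 5 genes in fon2-3, asp1-10 and fon2-3 asp1-fe, with bars for the standard error of the fit. CYCD2-2 has the largest differences, 1.88, 1.39 and 2.04, CYCD6-1 is the D-type cyclin with its largest value in asp1-10, and CYCB1-1 alone is below 0, with -0.27 in the double mutant.

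The share of all genes that met the same criteria sets the scale for these counts. In fon2-3 against WT 4 of the 5 genes were higher without overlap, as were 20.0% of all genes, and 1 was lower without overlap, as were 12.2%. In asp1-10 against WT the counts were again 4 and 1, beside 14.9% and 12.5% of all genes. In the double mutant against WT they were 4 and 0, beside 19.2% and 13.0%. By the threshold used in choosing the genes, a limma adjusted p under 0.05, the 5 genes held 3 calls in fon2-3 (CYCD2-2, CYCD5-3 and OsORC4, all higher), beside 3.91% of all genes called higher and 1.81% called lower. They held 4 calls in asp1-10 (CYCD2-2, CYCD6-1 and OsORC4 higher, CYCB1-1 lower), beside 1.40% higher and 1.03% lower. They held 3 calls in the double mutant (CYCD2-2, CYCD5-3 and OsORC4, all higher), beside 2.89% higher and 1.64% lower. Over all probes the called share was 5.22% in fon2-3, 2.11% in asp1-10 and 4.29% in the double mutant. Because these comparisons chose the genes, nothing is read from their counts. Nearest the threshold in fon2-3, by the size of the difference over its SE, lay CYCD5-3 with 0.66, inside, and CYCB1-1 with -0.57, outside, followed by CYCD6-1 with 0.61. In asp1-10 OsORC4 with 1.0 was just inside and CYCD5-3 with 0.50 outside, and in the double mutant CYCD5-3 with 0.78 was just inside and CYCD6-1 with 0.63 outside.

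Between mutants, a test is given only where earlier results known at the choice had named a gene alike in both lines. These had named CYCD2-2 in all 3 mutants and CYCD5-3 in fon2-3 and the double mutant. They had named CYCD6-1 and CYCB1-1 in asp1-10 alone, and OsORC4 in fon2-3 alone. The fit here called OsORC4 against WT in all 3 mutants, but the earlier naming was kept to, so OsORC4 has no such test. In the double mutant against fon2-3, 0 of the 5 genes were called, beside 0.00910% of all probes, and all 5 overlapped between the lines. CYCD2-2 differed by 0.16 (95% interval -0.44 to 0.76, limma adjusted p = 0.984) and CYCD5-3 by 0.12 (-0.25 to 0.49, adjusted p = 0.978). CYCD6-1 differed by 0.01 (-0.38 to 0.41, adjusted p = 0.999). CYCB1-1 differed most, by 0.30 (-0.05 to 0.65, adjusted p = 0.929), and its interval reached just below 0. For OsORC4 the difference was -0.18. Leaving out single arrays moved these differences over -0.02 to 0.25 for CYCD2-2, 0.01 to 0.21 for CYCD5-3, -0.05 to 0.13 for CYCD6-1 and 0.19 to 0.40 for CYCB1-1, so CYCD2-2 and CYCD6-1 had no settled sign. The value of CYCD2-2 below 0 came without fon2-3 replicate 1. These p-values do not show that the lines are alike, and the intervals give the sizes that remain possible.

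In the double mutant against asp1-10, 0 of the 5 genes were called, beside 0.0146% of all probes. CYCB1-1 was higher without overlap, by 0.48 and with a gap of 0.07, and CYCD6-1 was lower without overlap, by -0.31. For comparison, 8.60% of all genes were higher and 6.61% lower without overlap between these lines. CYCD2-2 differed by 0.64 (95% interval 0.04 to 1.24, limma adjusted p = 0.617, unadjusted p = 0.0377), and asp1-10 replicate 3 overlapped with the double mutant. CYCD5-3 and OsORC4 differed by 0.28 and 0.21, with overlap and no test. Without asp1-10 replicate 3 these were 0.49 and 0.50, without asp1-10 replicate 1 0.15 and 0.13, and OsORC4 was at -0.01 without asp1-10 replicate 2. The CYCD6-1 difference was -0.14 without asp1-10 replicate 3. In asp1-10 against fon2-3, where 0.0109% of all probes were called, 0 of the 5 genes were called and all overlapped. CYCD2-2 differed by -0.48 (-1.08 to 0.11, limma adjusted p = 0.622), and the other differences were 0.32 for CYCD6-1, -0.16 for CYCD5-3, -0.18 for CYCB1-1 and -0.39 for OsORC4. Over the fits without an array these ran from -0.85 to -0.28 for CYCD2-2, from 0.15 to 0.43 for CYCD6-1, from -0.37 to -0.04 for CYCD5-3, from -0.29 to -0.03 for CYCB1-1 and from -0.68 to -0.18 for OsORC4. All 5 kept their sign, and asp1-10 replicate 3 was the array left out at -0.85, 0.15, -0.37, -0.03 and -0.68.

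The third asp1-10 array bore on each of these genes. Set against the mean of asp1-10 replicates 1 and 2, replicate 3 was higher by 1.09 in CYCD2-2, by 0.62 in CYCD5-3, by 0.52 in CYCD6-1 and by 0.88 in OsORC4, and its CYCB1-1 signal differed by -0.45. It held the highest of all 12 values of CYCD5-3, CYCD6-1 and OsORC4, the lowest of CYCB1-1 and rank 2 for CYCD2-2. The shift was not confined to the 5 genes. Among the called list genes described below, replicate 3 was higher by 0.78 in RBR1, 0.70 in RPA2A and 0.65 in MCM6. It was higher by 0.49 in MCM2, 0.45 in POLD2 and 0.26 in H2B.6. Over all probes it correlated at 0.975 on average with the other asp1-10 arrays and at 0.983 with the fon2-3 arrays. Its part in the asp1-10 values was measured by leaving it out. The asp1-10 difference from WT was then 1.03 for CYCD2-2, 0.29 for CYCD5-3, 0.76 for CYCD6-1, 0.71 for OsORC4 and -0.60 for CYCB1-1, so that all 5 kept their sign. By the difference in log2, CYCD2-2 lost the most, and CYCD5-3 lost the largest share of its value, which had been 0.50. Without that array CYCD2-2 differed by 1.01 between the double mutant and asp1-10 (SE 0.191, limma adjusted p = 0.0816) and by -0.85 between asp1-10 and fon2-3 (SE 0.191, limma adjusted p = 0.0874). Over 19 alternatives the adjusted p ran from 0.0816 to 0.984 in the first of these comparisons and from 0.0874 to 0.908 in the second.

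In each of the 5 genes the double mutant's difference from WT was smaller in size than the sum of the fon2-3 and asp1-10 differences. For CYCD2-2 the double mutant differed from WT by 2.04, against a sum of 3.27, a departure of -1.24 (SE 0.385). For OsORC4 the double mutant value was 1.21, against a sum of 2.39, and for CYCD6-1 it was 0.63, against 1.55. For CYCD5-3 it was 0.78, against 1.16, and this departure of -0.38 was the smallest beside its SE of 0.238. In CYCB1-1 the double mutant value was -0.27, against a sum of -1.32, a departure of 1.05 (SE 0.224). These departures are descriptive, since the genes were chosen on the terms of the sum and the double mutant has the asp1-fe allele. The sums also hold asp1-10 replicate 3. Without it the asp1-10 term was smaller in size in each of the 5 genes, at 1.03 in CYCD2-2 and 0.29 in CYCD5-3. Sums and departures would then be smaller in size too. Among 54 other cell cycle genes with a probe, limma called 0 for a departure from the sum, with 8 at an unadjusted p under 0.05 and a lowest adjusted p of 0.223. Those 8 were 14.8% of the 54, near the 13.0% of all probes at an unadjusted p under 0.05. A shortfall from the sum was not confined to the 5 genes. Among the list genes called against WT, described below, the departure was -0.88 in RBR1 (SE 0.363) and -0.79 in MCM6 (SE 0.4025). It was -0.70 in MCM2, -0.40 in RPA2A and -0.30 in POLD2, while H2B.6 had 0.14. These values are descriptive as well.

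These 54 genes came from lists of cell cycle genes taken by name, of which 59 of 97 had a probe, the 5 genes included. In fon2-3 against WT 5 of the 54 rose and 0 fell, or 9.26%, beside 3.91% of all genes called higher and 1.81% called lower. In the double mutant 5 rose and 0 fell, or 9.26%, beside 2.89% higher and 1.64% lower. At an unadjusted p under 0.05 in limma there were 24 in fon2-3 and 20 in the double mutant. In asp1-10 0 of 54 were called by limma, with 10 at an unadjusted p under 0.05 and a lowest adjusted p of 0.122. Between mutants limma called 0 of 54 in each comparison, with 1 at an unadjusted p under 0.05 in the double mutant against fon2-3, 8 in the double mutant against asp1-10 and 11 in asp1-10 against fon2-3. The share of all probes at that unadjusted level is not given here for these comparisons, so nothing is read from the unadjusted counts. The counts in fon2-3 and the double mutant moved with single arrays. The fon2-3 count was 0 without WT replicate 1, WT replicate 3, fon2-3 replicate 2 or fon2-3 replicate 3. It was 2 without fon2-3 replicate 1, asp1-10 replicate 1 or either of double mutant replicates 1 and 3, and 9 without asp1-10 replicate 3. The double mutant count was 0 without WT replicate 1, WT replicate 3 or either of double mutant replicates 1 and 2, 1 without double mutant replicate 3, and 9 without asp1-10 replicate 3.

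Outside the 5 genes, the rises were in RBR1, in genes of DNA replication and in 1 histone gene. RBR1, the retinoblastoma-related repressor that D-type cyclins act on, had signals of 8.91, 8.89 and 9.11 in fon2-3, 8.08, 7.97 and 8.80 in asp1-10, 8.49, 9.02 and 8.60 in the double mutant, and 7.42, 8.19 and 7.41 in WT. It was above all WT arrays in fon2-3 and the double mutant, and asp1-10 replicates 1 and 2 fell below WT replicate 2. RBR1 rose by 1.3 in fon2-3 (SE 0.256, limma adjusted p = 0.0250) and by 1.03 in the double mutant (adjusted p = 0.0483), and its asp1-10 difference was 0.61 (adjusted p = 0.231). Without asp1-10 replicate 3 the last value was 0.35. The fon2-3 rise was called in 8 of 12 fits without an array and in 7 of 7 other settings, with an adjusted p of at most 0.0877. The double mutant rise was called in 2 of 12 and 3 of 7, with an adjusted p of up to 0.169.

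Of 18 other replication genes 4 rose in fon2-3, 3 in the double mutant and 0 in asp1-10, where 4 had an unadjusted p under 0.05 in limma. MCM2 and MCM6 are subunits of the helicase that OsORC4's complex helps to load. MCM2 had 9.70, 10.18 and 10.37 in fon2-3, 9.77, 9.18 and 9.96 in asp1-10, 9.83, 10.34 and 9.91 in the double mutant, and 8.77, 9.42 and 8.78 in WT. It rose by 1.09 in fon2-3 (limma adjusted p = 0.0382) and by 1.04 in the double mutant (adjusted p = 0.0474), without overlap in either. MCM6 had 8.49, 8.70 and 9.02 in fon2-3 and 7.29, 8.06 and 7.31 in WT, and rose by 1.18 there (limma adjusted p = 0.0411). POLD2, a subunit of DNA polymerase delta, rose by 0.73 in fon2-3 (limma adjusted p = 0.0403) and by 0.87 in the double mutant (adjusted p = 0.0285). RPA2A, a subunit of the protein that coats single-stranded DNA, rose by 1.11 in fon2-3 (limma adjusted p = 0.0476) and by 1.12 in the double mutant (adjusted p = 0.0494). These rises were sensitive to single arrays. In fon2-3, of 12 fits without an array, MCM2 was called in 6, MCM6 in 5, POLD2 in 4 and RPA2A in 4, and the highest adjusted p over all alternatives lay between 0.126 for POLD2 and 0.140 for RPA2A. In the double mutant POLD2 was called in 8 of 12 such fits, MCM2 in 4 and RPA2A in 3, with highest adjusted p of 0.109 for POLD2, 0.166 for MCM2 and 0.170 for RPA2A. In asp1-10 the smallest p of the list belonged to RPA1C, with -0.39 (limma adjusted p = 0.185). The median of the 18 genes was 0.57 in fon2-3 with 17 positive, 0.23 in asp1-10 with 14 positive, and 0.47 in the double mutant with 17 positive, beside medians over all genes of 0.02 in fon2-3, 0.01 in asp1-10 and 0.01 in the double mutant. Averaged per array, the 18 genes ran from 8.20 to 8.57 in fon2-3, from 7.81 to 8.32 in asp1-10 and from 8.23 to 8.53 in the double mutant, against 7.71 to 8.02 in WT.

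None of the measured D-type cyclins, B-type cyclins and origin recognition subunits outside the 5 genes was called against WT. The 5 genes had been chosen on calls against WT in these same arrays, which left few calls to the rest of these families. These values are therefore no test of whether the 5 genes stand apart from their relatives. The other origin recognition subunits ORC1, ORC2 and ORC5 had 0 calls by limma against WT in any mutant, with 1 gene at an unadjusted p under 0.05 in fon2-3, 1 in asp1-10 and 0 in the double mutant. Their differences were 0.09 to 0.83 in fon2-3, -0.11 to 0.60 in asp1-10 and 0.06 to 0.52 in the double mutant. These were below those of OsORC4, which the choice had favoured, and ORC5 in fon2-3 had a limma adjusted p of 0.0836. The other D-type cyclins CYCD3-2, CYCD4-1, CYCD4-2 and CYCD5-1 had 0 calls, with 2 genes at an unadjusted p under 0.05 in fon2-3, 1 in asp1-10 and 2 in the double mutant. CYCD3-2 came nearest, with 0.70 in fon2-3 (limma adjusted p = 0.0740) and 0.69 in the double mutant (adjusted p = 0.0846), and CYCD5-1 had -0.40 in asp1-10 (limma adjusted p = 0.122). The 3 other B-type cyclins ran from -0.23 to -0.08 in fon2-3, from -0.24 to -0.22 in asp1-10 and from 0.01 to 0.17 in the double mutant, with 0 calls and 0 at an unadjusted p under 0.05 in limma. CYCB1-3, which shares a synonym with CYCB1-1, had 6.65, 6.71 and 6.84 in fon2-3, 6.71, 6.81 and 6.31 in asp1-10, 6.95, 7.20 and 6.94 in the double mutant, and 6.95, 6.82 and 6.79 in WT, with overlap between every mutant and WT.

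Of the 17 other cyclins of all types limma called 0 in each mutant, with 7 at an unadjusted p under 0.05 in fon2-3, 2 in asp1-10 and 3 in the double mutant, and their median was 0.19 in fon2-3, -0.04 in asp1-10 and 0.09 in the double mutant. Of 12 cyclin-dependent kinases and inhibitors limma likewise called 0, with 3 at an unadjusted p under 0.05 in fon2-3, 2 in asp1-10 and 3 in the double mutant. Their median was -0.07 in fon2-3, -0.05 in asp1-10 and -0.07 in the double mutant. The smallest p among them was that of CDKA-2 in fon2-3, with 0.44 (limma adjusted p = 0.0759). The cohesion protector SGO1 was the only gene listed under mitosis. It had -0.08 in fon2-3, -0.24 in asp1-10 and -0.11 in the double mutant, and was called in none of them. Of 5 H2B histones 1 rose, H2B.6 in the double mutant by 0.58 (limma adjusted p = 0.0315). That call was made in 6 of 12 fits without an array, with an adjusted p of up to 0.118, and as H2B copies are nearly identical its signal may hold that of others.

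**Figure D3:**
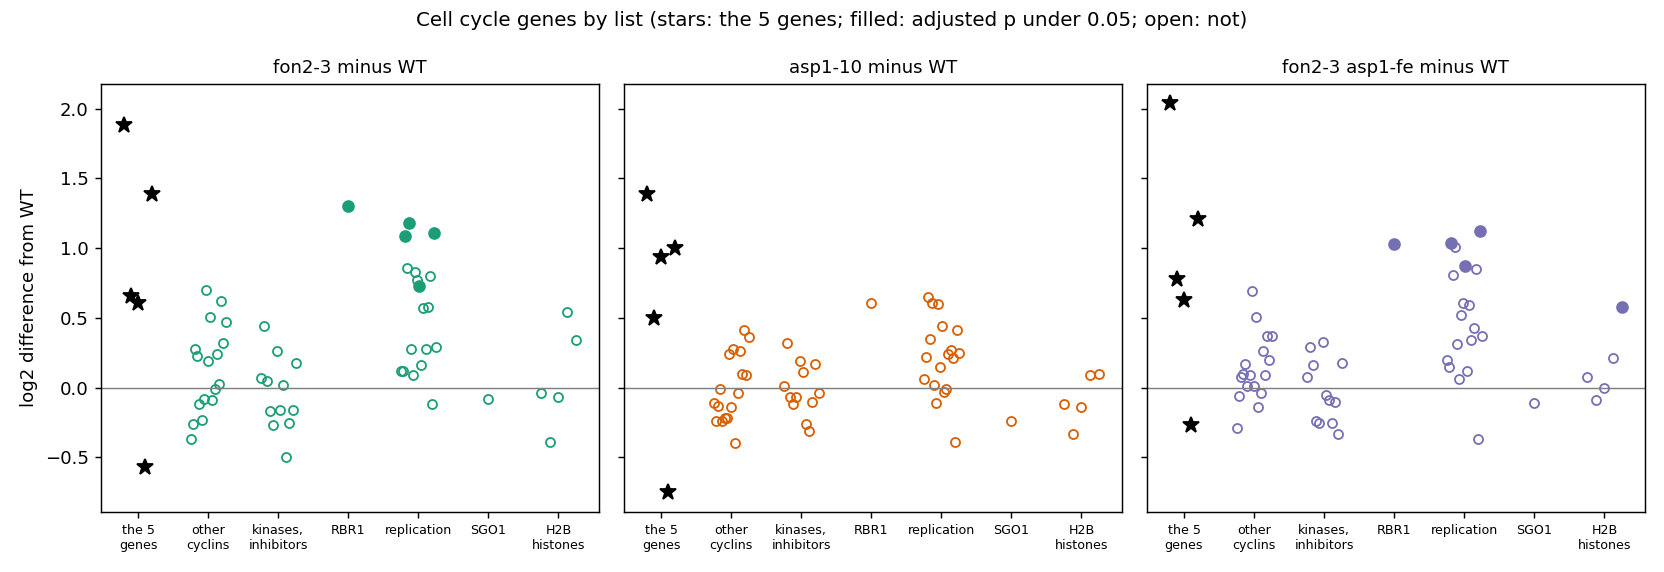
Difference in log2 signal from WT (y axis) of the 5 genes (stars, no test) and 54 other cell cycle genes (circles, filled where the adjusted p was under 0.05), by list (x axis), in a panel for each mutant. Filled circles lie at RBR1 and the replication genes in fon2-3 and the double mutant, with 1 H2B histone in the double mutant, and none lies in the asp1-10 panel.

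**Figure D4:**
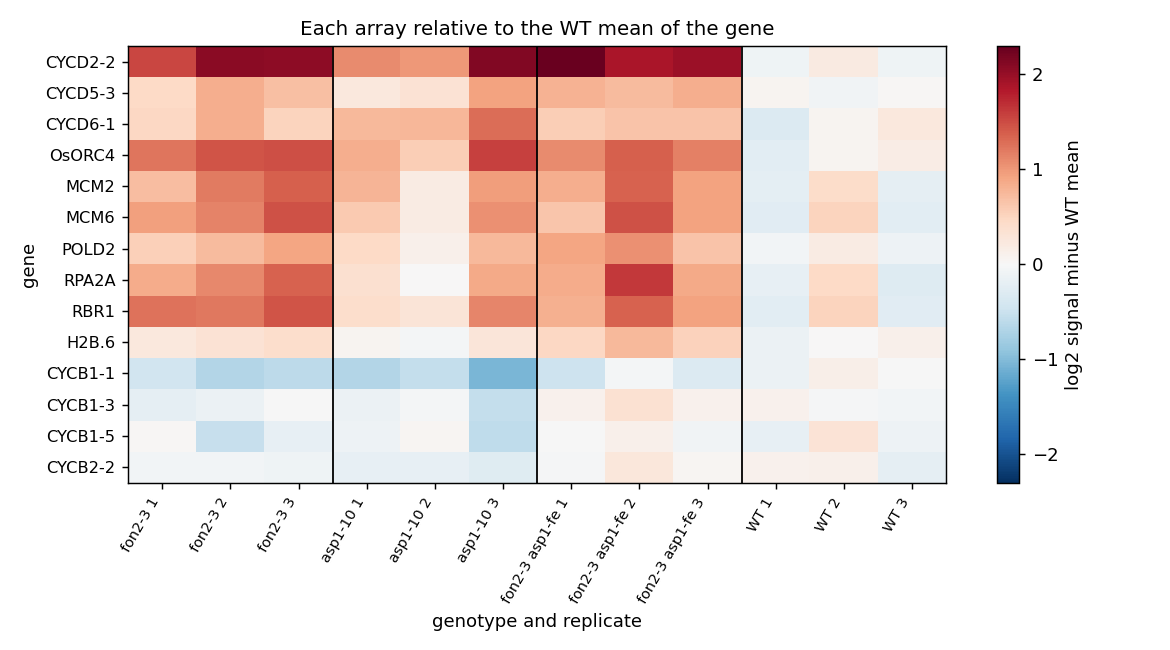
Log2 signal minus the gene's WT mean (colour) for the 5 genes, the called list genes and the other B-type cyclins (rows) on the 12 arrays (columns, by genotype). CYCD2-2 reads highest in all 9 mutant columns, asp1-10 replicate 3 is deeper in colour than replicates 1 and 2 in the upper rows, and CYCB1-1 is below its WT mean in both single mutants, deepest in asp1-10 replicate 3.

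The profiles of the 5 genes over the arrays were alike to different degrees. Over the 12 arrays CYCD2-2 correlated with CYCD5-3 at 0.959 and with OsORC4 at 0.948, and after each genotype's mean was subtracted these values were 0.856 and 0.779. CYCB1-1 correlated with CYCD2-2 at -0.625 over the arrays and at -0.761 within genotypes, and with CYCD6-1 at -0.782 and -0.355. These values describe 12 arrays whose points share genotype and array, asp1-10 replicate 3 among them. By Pearson's r among 1179 named genes, the profiles most like CYCD2-2 were GT43A (0.973, within genotypes 0.883), HB2 (0.973, 0.775) and ATCase (0.969, 0.824). CYCD5-3 was closest to CSLD2 (0.946, 0.801), the kinase gene CDKF-4 (0.944, 0.794) and MPK14 (0.942, 0.838). CYCD6-1 was closest to the meristem gene OSH71 (0.936, 0.844), then DAGAT (0.915, 0.629) and GL2-5 (0.909, 0.701). For OsORC4 the most alike were the arginine methyltransferase genes PRMT3 (0.979, 0.890) and PRMT1 (0.968, 0.901), with ATCase next (0.964, 0.806). CYCB1-1 had weaker likeness throughout, with KIN5C, a kinesin gene, at 0.838 (0.744), OsCASPL5A2 at 0.835 (0.718) and H2B.11 at 0.812 (0.549).

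Some markers of the sampled tissue also differed from WT. The mean of 6 meristem markers (FON1, LAX1, OSH1, OSH15, OSH71 and WOX4) ran from 6.63 to 7.80 in fon2-3, from 7.32 to 7.42 in asp1-10 and from 6.78 to 7.33 in the double mutant, against 5.81 to 6.78 in WT. Of these markers 2 were called higher in fon2-3, 2 in asp1-10 and 3 in the double mutant, and all 6 were above the median of all values in every genotype. The fon2-3 means overlapped with WT, and the lowest double mutant mean was level with the highest WT mean at 2 decimals. The highest fon2-3 mean came from replicate 2, where LAX1 was at 9.33, against 5.42 and 4.98 in fon2-3 replicates 1 and 3. WOX4 averaged 5.74 in fon2-3, 5.87 in asp1-10 and 5.91 in the double mutant, against 6.0 in WT, and was called in none. The mean of 6 green tissue markers ran from 4.45 to 4.68 in fon2-3, from 4.35 to 5.03 in asp1-10 and from 4.41 to 4.78 in the double mutant, against 5.12 to 5.51 in WT. Of these 2 were called lower in fon2-3, 1 in asp1-10 and 2 in the double mutant, and the chlorophyll-binding genes CAB1R and CAB2R were below the median of all values in every genotype. The green tissue markers did not move alike. OEE3 averaged 5.59 in fon2-3, 6.10 in asp1-10 and 5.63 in the double mutant, against 7.49 in WT. PSAH averaged 4.98, 4.97 and 5.04 in the same order, against 6.18 in WT. PSB28 had 5.77, 5.76 and 5.72, against 5.90 in WT. PSAG had 6.15, 6.92 and 6.18, against 6.53 in WT, so it was higher than WT in asp1-10. In asp1-10 replicate 3 CYCD2-2, CYCD5-3, CYCD6-1 and OsORC4 were higher than in replicates 1 and 2 of that genotype. The green tissue mean of replicate 3 was 4.35, against 5.03 and 4.91 in replicates 1 and 2. OEE3 had the widest gap among these markers, at 4.89 in replicate 3 against 6.75 and 6.66. PSB28 was at 5.73 there, between 5.85 and 5.71. The meristem mean of replicate 3 was 7.42, against 7.32 and 7.33 in replicates 1 and 2. Secondary wall markers CESA4 and CESA9 averaged 6.37 to 6.55 in fon2-3, 6.50 to 6.68 in asp1-10 and 6.29 to 6.64 in the double mutant, against 5.98 to 6.28 in WT, with 1 called higher in each. CESA4 averaged 7.83 in fon2-3, 7.93 in asp1-10 and 8.04 in the double mutant, against 7.33 in WT. CESA9 averaged 5.07, 5.24 and 4.94 in the same order, against 5.0 in WT, and was below the median of all values in every genotype. Of 4 anther markers 1 was called higher in asp1-10, with list means of 4.75 to 5.22 there and 4.66 to 4.78 in WT. All of them but GAMYB were below the median of all values in every genotype. Of 4 floral organ markers 1 was called lower in asp1-10, with 4.74 to 5.11 there and 4.83 to 5.58 in WT. MADS3 and MADS58 were below the median of all values in every genotype. In asp1-10 DL averaged 8.71, against 10.19 in WT, and MADS16 averaged 6.25, against 5.58 in WT. The part of these tissue shares in the values of the 5 genes was not tested.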

How the data were processed

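Total RNA was converted to biotin-labelled sense-strand DNA and read on 12 one-colour Affymetrix arrays, 3 for each of 4 genotypes. The authors deposited 1 signal per probe for 54922 probes, made with Affymetrix Expression Console 1.3 per the submitters' processing notes, and the deposited values were taken as log2 from their range. How they were normalized and summarised, and the base of the log, is not given in the sources used here. Array medians ran from 5.51 to 5.60 and correlations between arrays from 0.962 to 0.986. Precision is limited by having 3 arrays for each genotype. The platform annotation gave 1 gene for 15829 probes, several for 440 and none for 38653, and the highest-mean probe stood for a gene. Names came from it and from the rice gene table of assembly ASM3414082v1, with no coordinates used. FON2 and ASP1 were not analysed here under those names.

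All 12 arrays entered 1 model with a mean for each genotype, in limma 3.58.1 (lmFit, eBayes, R 4.3.3; 8 residual and 3.22 prior degrees of freedom). Each test was two-sided, with Benjamini-Hochberg adjustment over all probes and a threshold of 0.05. The fit was tested on simulated data. With 3 arrays against 3, exact permutation cannot reach a p below 0.1 and was not used.

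The 5 genes, the cell cycle and marker lists and the naming rule were chosen with earlier results of these data known. From each list up to 4 called genes per comparison were named by smallest p, or 1 where none was called, and for each of the 5 genes the 3 named genes with the highest Pearson r. Markers RBCS, CESA7, EAT1 and MADS4 had no match, and MADS2 matched several genes and was left out. Alternatives were cyclic loess, median centring, removal of dim probes (no genotype averaging at least 5.55, which is the median over the table), fits of only the 2 groups in question, a robust prior with a variance trend, array weights, a replicate block and leaving out each array. Replicate numbers were taken as not pairing the arrays, since 2 of 18 same-number pairs had deviations correlated over 0.1. Protein and promoter sequences were not used here.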

Additional observations from a re-analysis of the deposited data

How the results depend on the processing

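No log2 difference from WT of CYCD2-2, CYCD5-3, CYCD6-1, CYCB1-1 or OsORC4 changed direction under the 7 other settings or the 12 fits without an array. Another probe could not be tried, as each gene had 1. The calls that chose them moved more: over the 12 fits without an array OsORC4 in asp1-10 was called in 1, CYCD5-3 in 2 for fon2-3 and 6 for the double mutant, CYCB1-1 in 4 and CYCD6-1 in 9 for asp1-10, OsORC4 in 10 for fon2-3 and 8 for the double mutant, and CYCD2-2 in 10 for fon2-3, 8 for asp1-10 and 11 for the double mutant. Probes called in fon2-3 against WT numbered 2866, and 4718 without dim probes, 4421 with array weights and 1475 with a replicate block. In asp1-10 against WT 1157 were called, and 2507 without dim probes, 2 with only the groups compared, 1775 with a variance trend and robust prior, and 508 with the replicate block. In the double mutant against WT 2358 were called, and 4191 without dim probes, 4192 with array weights and 1147 with the block. In the double mutant against fon2-3 5 were called, with 2 in the groups compared alone and 2 with the block. Against asp1-10 it was 8, and 14 without dim probes, 3 in the groups alone and 4 with the block. In asp1-10 against fon2-3 6 were called, and 14 with cyclic loess, 41 without dim probes, 1 in the groups alone, 22 with the variance trend, 13 with weights and 1 with the block. Cell cycle genes called in fon2-3 were 5, and 2 with loess and 13 without dim probes, and in the double mutant 5, 2 and 10. Leaving out single arrays gave 1 to 4554 probes in fon2-3, 163 to 1202 in asp1-10 and 18 to 3998 in the double mutant against WT, 2 to 8 and 4 to 100 in the double mutant against fon2-3 and asp1-10, and 1 to 300 in asp1-10 against fon2-3. It gave 0 to 9 cell cycle genes in fon2-3 and 0 to 9 in the double mutant. The cause of these shifts was not tested, and some of the settings also hold fewer arrays or probes. Under the replicate block the calls of CYCD2-2, CYCB1-1 and OsORC4 in asp1-10 and of CYCD5-3 in fon2-3 were not made. Over the 7 other settings, the block included, those of CYCD2-2, CYCB1-1 and OsORC4 in asp1-10 were each made in 5. That of CYCD6-1 in asp1-10 was made in 6 and that of CYCD5-3 in fon2-3 in 4, while the remaining calls were made in all 7. Of 12 arrays, 2 correlated best with an array of their own number.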
